A study of Mus musculus with 2 samples.

Results

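The genes described are those of the mouse translation initiation factors: every autosomal protein-coding gene whose symbol begins with Eif and a digit from 1 to 6, without the Eif2ak kinases. A RefSeq table of the GRCm38.p6 assembly held 49 such genes among 20360 autosomal protein-coding genes with a known strand, and all 49 were also found in the older GENCODE M1 annotation of the mm9 build. The matching X and Y genes (3) and pseudogenes or noncoding genes (12) were left out, as were 4 GENCODE M1 genes named Eif2c, an older name of the Argonaute genes. The rule used gene symbols and no ELF1 value. ELF1 peaks from ChIP-seq were used. ELF1 is an ETS-family transcription factor that binds DNA around a GGAA core, and the cells were CH12.LX, a female B-cell lymphoma line of the mouse strain B10.H-2aH-4bp/Wts. The samples were 2 biological replicates of a single line in culture, in 1 group, with no treatment named in the labels and no second condition. Whether the replicates came from separate cultures is not stated, and peak lists do not measure expression, so the identity of the line was not checked. Lists of 29086 optimal and 27399 conservative peaks and 300000 relaxed entries per replicate were on the mm10 build, and a list of 18804 peaks was on mm9. Read depth is unknown from these lists. The number called signal here is column 7 of a list, the value given by the authors' peak caller, on a scale that is not stated.

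Translation initiation brings a ribosome to the start codon of a messenger RNA. eIF2 carries the initiator tRNA as a complex with GTP, and eIF2B recharges eIF2 with GTP, a step that the Eif2ak kinases inhibit by phosphorylating eIF2. eIF3, a large scaffold of many subunits, holds the small ribosomal subunit, while eIF4E, eIF4G and the helicase eIF4A bind the cap and open the message. eIF1, eIF1A and eIF5 control recognition of the start codon, and eIF5B then joins the large subunit. Growing and dividing cells rely on translation initiation, but the need of these cells for any of the listed genes was not measured.

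The DNA under the ELF1 summits is shown for the strongest members of 3 groups on the mm9 list, eIF3, eIF2B and the eIF4 factors, because these windows carry the GGAA cores that ELF1 is known to bind. Each line gives 101 bases of the mm9 (NCBIM37) genome, 50 on each side of the summit, read 5′ to 3′ on the gene's own strand, with every GGAA or its reverse complement TTCC in capitals.

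Eif3d (chr15:77801229-77801329, minus strand): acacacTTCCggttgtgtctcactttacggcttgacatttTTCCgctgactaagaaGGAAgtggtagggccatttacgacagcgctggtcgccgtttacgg
Eif3i (chr4:129277862-129277962, minus strand): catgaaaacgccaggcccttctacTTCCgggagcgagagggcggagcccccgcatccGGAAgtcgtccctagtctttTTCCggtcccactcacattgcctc
Eif3f (chr7:116077723-116077823, plus strand): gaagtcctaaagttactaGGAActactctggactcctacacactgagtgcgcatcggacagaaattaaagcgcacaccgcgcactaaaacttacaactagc
Eif2b1 (chr5:125029079-125029179, minus strand): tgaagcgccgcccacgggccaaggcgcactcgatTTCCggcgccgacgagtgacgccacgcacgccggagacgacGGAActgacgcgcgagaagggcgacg
Eif2b4 (chr5:31495482-31495582, minus strand): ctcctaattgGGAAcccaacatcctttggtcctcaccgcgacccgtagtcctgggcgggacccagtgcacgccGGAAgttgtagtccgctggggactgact
Eif2b5 (chr16:20498882-20498982, plus strand): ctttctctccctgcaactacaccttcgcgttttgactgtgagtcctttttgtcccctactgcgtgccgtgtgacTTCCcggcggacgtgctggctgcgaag
Eif4a1 (chr11:69486023-69486123, minus strand): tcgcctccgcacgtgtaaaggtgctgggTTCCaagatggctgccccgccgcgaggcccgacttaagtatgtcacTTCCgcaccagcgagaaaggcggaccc
Eif4a2 (chr16:23107411-23107511, plus strand): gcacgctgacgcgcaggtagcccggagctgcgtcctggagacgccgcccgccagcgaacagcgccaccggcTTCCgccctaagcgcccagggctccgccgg
Eif4e2 (chr1:89110436-89110536, plus strand): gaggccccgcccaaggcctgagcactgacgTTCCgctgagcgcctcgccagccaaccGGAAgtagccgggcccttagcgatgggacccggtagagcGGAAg

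Further windows were chosen after their values were seen. That of Eif5b had the highest mm9 signal of all members, that of Eif6 held CCGGAAG at its centre, and that of Eif2s2 held no GGAA. The Eif5b window is centred at -664 bp (upstream) from the Eif5b start. On mm10 the strongest Eif5b summit lay 49 bp from the 5′ end of its neighbour Txndc9. The mm9 peak nearest the Eif5b start, at 35 bp, had a signal of 107.

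Eif5b (chr1:38054141-38054241, plus strand): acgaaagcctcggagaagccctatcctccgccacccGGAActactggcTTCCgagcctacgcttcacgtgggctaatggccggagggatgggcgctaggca
Eif6 (chr2:155652411-155652511, minus strand): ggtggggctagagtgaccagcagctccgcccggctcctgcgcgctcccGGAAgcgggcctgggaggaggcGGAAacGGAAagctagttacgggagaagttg
Eif2s2 (chr2:154718630-154718730, minus strand): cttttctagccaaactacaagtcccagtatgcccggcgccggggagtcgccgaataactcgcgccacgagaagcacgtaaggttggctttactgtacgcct

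A GGAA or TTCC was present in 40 of the 41 member windows (97.6%) and in 90.5% of the windows of 8572 other promoter peaks. The member windows were those of each gene's strongest mm9 peak, with a median signal of 264. The others were all remaining mm9 promoter peaks of any strength, weaker second peaks included. All mm9 promoter peaks had a median of 109, so the shares in these windows compare sets of unlike strength. Such a short word occurs often by its length alone. The longer word CCGGAAG, sought on both strands, was present in 14 of 41 member windows (34.1%, 95% exact interval 20.1% to 50.6%) and in 26.6% of the others (25.7% to 27.6%), so the members' interval includes the share of the others. Eif3i and Eif3c held CCGGAAG or its reverse complement at 2 places each. CAGGAAG was present in 4 member windows (9.76%) and 14.6% of the others, and GAGGAAG in 4 (9.76%) and 9.05%. All 3 longer words contain GGAA. At least one of them was present in 20 member windows (48.8%) and 46.1% of the others, so in 21 of the 41 member windows the GGAA cores, where there were any, stood in other contexts. In the RefSeq promoter sequences of GRCm38.p6, from 250 bases before to 50 bases after the 5′ end, CCGGAAG was present at 10 of the 27 members with an ELF1 peak whose sequence was matched (37.0%), at 23.6% of 3711 other genes with a peak, and at 10.6% of 9811 other genes whether or not they had one. No interval was computed for the RefSeq promoter shares, and 27 of the 39 members with a peak had a matched sequence. Word matches describe letters in a window and do not show a bound site. A pattern outside the ETS words was noticed when the windows were read. The word ACTACAA, or its reverse complement, stood in 3 member windows (7.32%, 95% exact interval 1.5% to 19.9%), those of Eif2s2, Eif2b4 and Eif3c. It stood in 2.65% of the others, a share inside the members' interval. Because the word was picked from the member windows, a higher share in them was favoured in advance.

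Most initiation factor genes had ELF1 at the promoter. An optimal mm10 summit lay within 1 kb of the RefSeq 5′ end of 39 of the 49 genes (79.6%, 95% exact interval 65.7% to 89.8%). The same held for 40.3% of all autosomal protein-coding genes (8212 of 20360) and 40.2% of those outside the list. On the mm9 list, with every GENCODE M1 start, 41 of 49 genes had a summit within 1 kb (83.7%, 70.3% to 92.7%), against a background of 37.5% (8040 of 21418). The conservative list gave 39 members as well (background 39.8%), as did the stronger 50% of optimal peaks (background 32.6%). In all, 38 genes had a peak on both builds, 1 on mm10 only, 3 on mm9 only and 7 on neither. Intervals cover counting error only. The genes were listed with earlier results on these data known, genes that share a promoter are not independent, and no list test was made.

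**Figure D1:**
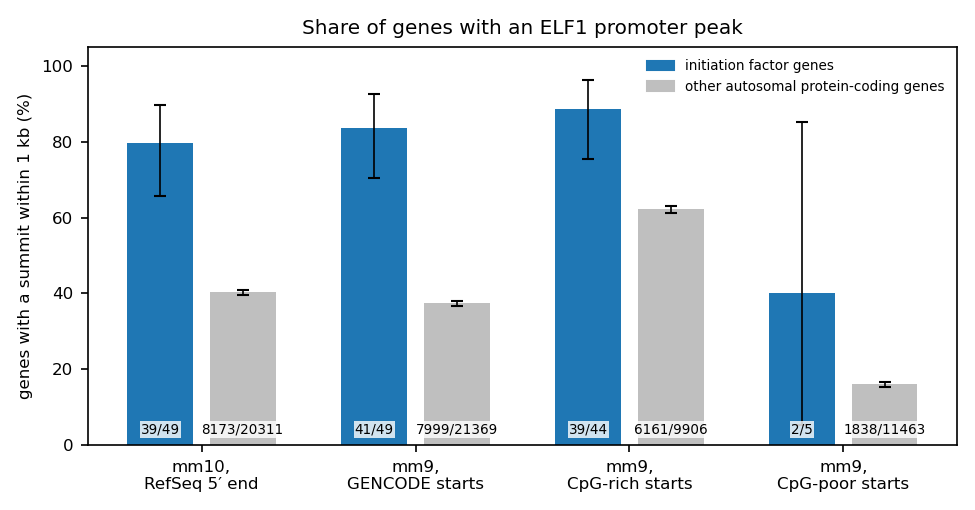
Percentage of genes with an ELF1 summit within 1 kb of a start site, for the initiation factor genes (blue) and the other autosomal protein-coding genes (grey), on mm10, on mm9, and on mm9 by CpG class of the outermost start; error bars are 95% exact intervals and the counts stand in the bars. The blue bars stand at 79.6% on mm10 and 83.7% on mm9, and at 88.6% for CpG-rich starts, where the grey bar reaches 62.2%.

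Promoters with many CpG dinucleotides carry ELF1 more often over the whole genome, and most initiation factor promoters are of that kind. An observed over expected CpG ratio of at least 0.6, within 500 bp of the outermost mm9 start, was found at 44 of the 49 members. Of these 44 genes 39 had a peak (88.6%), against 6161 of 9906 other CpG-rich genes (62.2%). The members' median ratio in this class was 0.844 and that of the other genes 0.785, so the classes were not matched exactly. The CpG-poor members were Eif2d, Eif4g1, Eif4e1b, Eif4a3l1 and Eif4ebp3, of which Eif2d and Eif4g1 had a peak. Among other CpG-poor genes 1838 of 11463 had one. The ratio of Eif4g1 was 0.197 at its outermost start, and its mm9 summit lay 17 bp downstream of another of its 20 annotated starts, so that start and not the outermost one was near the peak.

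The peaks of these genes were strong for promoter peaks. Over the 39 genes with an mm10 peak the strongest promoter peak had a median signal of 201.5, with a range of 52.2 to 480, and the other genes with a peak had a median of 97.7. Of the 39 peaks 25 (64.1%) reached the upper quartile of 9168 autosomal promoter peaks, a signal of 159, against 33.0% of all genes with a promoter peak. None of the 39 lay below the lower quartile of 34.1, and 34 were above the median of 68.7. These cuts come from all promoter peaks, weaker second peaks of a gene included, whereas each gene was described by its strongest. All genes with a promoter peak thus also stood above the cut of 68.7 at their median, 98.0. The shares of all genes on either side of these cuts were not computed. On the mm9 list the medians were 264 for members and 142 for other genes, on that list's own scale. Among genes with CpG-rich starts the mm9 medians were 264 for members and 159 for other genes. Each of the 39 peaks had the same signal, within 0.001, in the conservative and in the pooled relaxed list. The optimal and conservative lists were derived from the relaxed entries, so the equal values are no independent support.

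**Figure D2:**
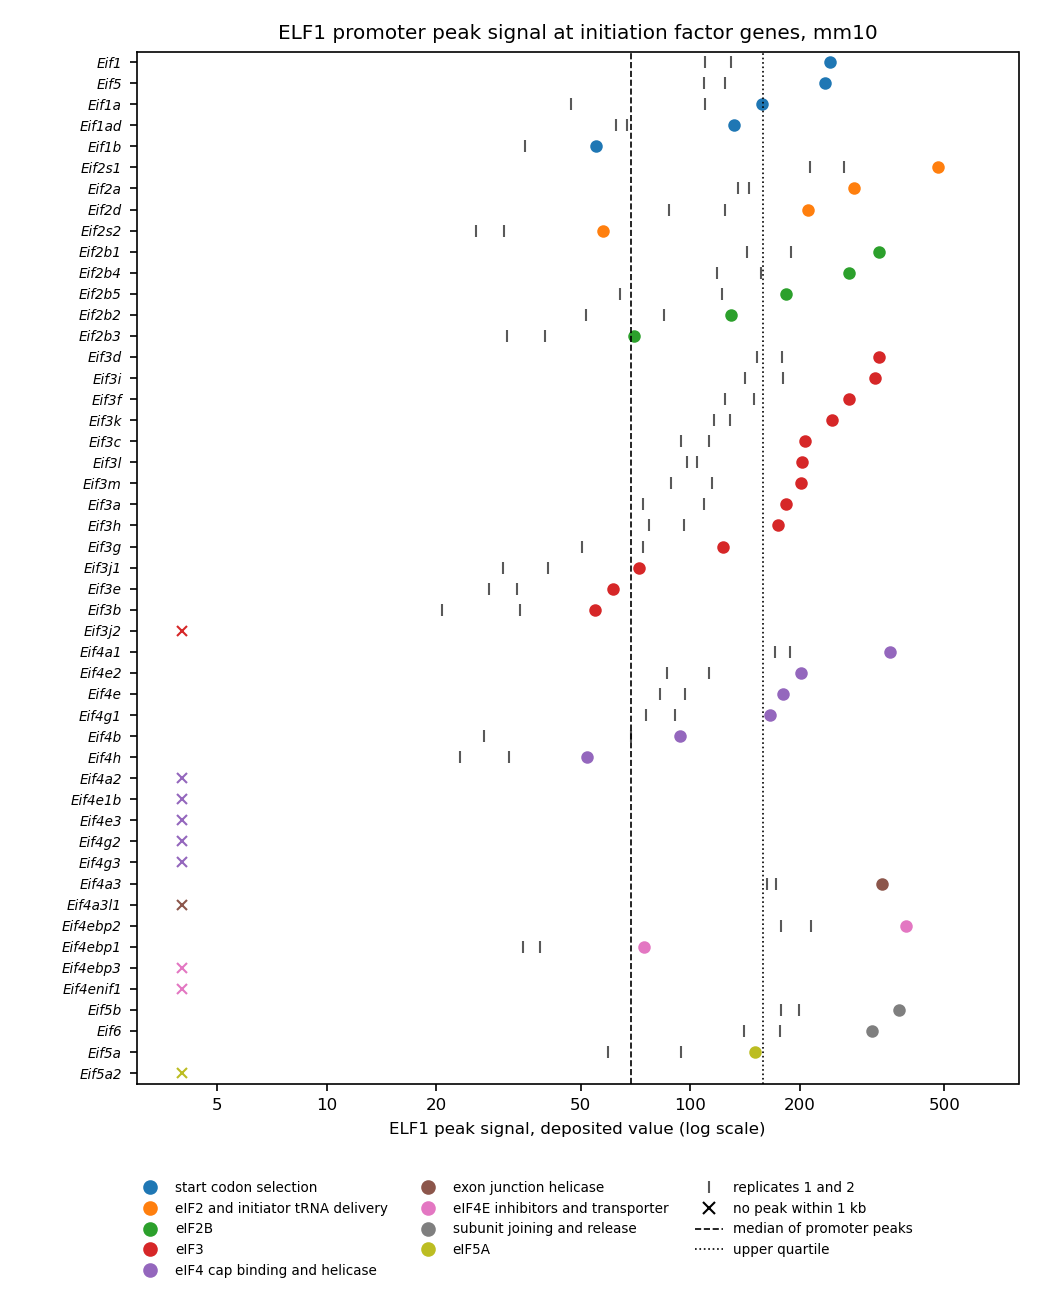
Signal of the strongest promoter peak (log axis) of each initiation factor gene in the optimal mm10 list (coloured points, by factor group) and of the matching entries in the replicates' relaxed lists (grey ticks); crosses mark genes with no peak within 1 kb, placed at an arbitrary position. Points run from 52.2 at Eif4h to 480 at Eif2s1, 25 of them at or above the upper quartile of promoter peaks (dotted line), and 5 of the 10 crosses belong to the eIF4 group.

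Most of these peaks were found again in both replicates' relaxed lists. The selection favoured this, since the optimal list was derived from the relaxed lists by the irreproducible discovery rate. A summit within 100 bp of the optimal one was found in both relaxed lists for 38 of the 39 genes (97.4%), against 93.6% of other genes with a promoter peak. In both lists it ranked among the 29086 strongest entries for the same number of members (97.4%), against 85.6% of the other genes. The member peaks were stronger in the optimal list (median 201.5 against 97.7), which favoured a high rank in advance. The 2 shares thus do not compare reproducibility at equal strength. Signals ran from 25.7 to 214 in replicate 1, with a median of 87.3, and from 20.8 to 265 in replicate 2, with a median of 112.5. Replicate 2 had the higher value at 34 of 38 members and at 6502 of 7647 other genes, so this was no trait of the members. The median ratio of replicate 2 to replicate 1 was 1.20 for members and 1.28 for other genes. The scales of the replicates' lists may differ, so the ratio is no measure of binding. The members higher in replicate 1 were Eif3b, Eif3h, Eif4h and Eif4ebp1. Summits moved by a median of 4 bp in replicate 1 and 2 bp in replicate 2. Eif1b, a close relative of Eif1, had a signal of 35.2 in replicate 1 and no replicate 2 summit within 100 bp. The nearest replicate 2 entry, with a signal of 27.2, lay at -39 bp from the 5′ end, where negative means upstream, and the optimal summit lay at -143 bp.

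**Figure D3:**
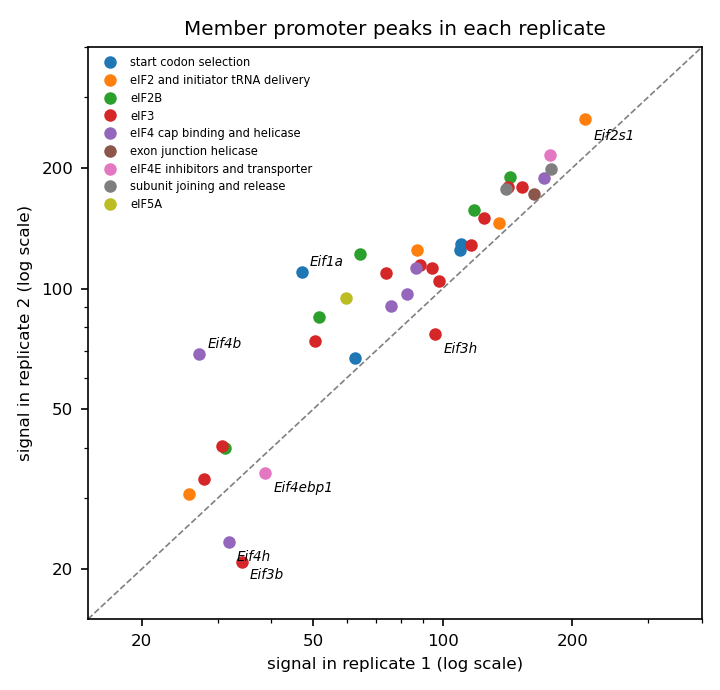
Signal of each member's promoter peak in replicate 1 (horizontal, log axis) and replicate 2 (vertical, log axis), coloured by factor group, with the line of equal values dashed; Eif1b, with no replicate 2 entry within 100 bp, is not drawn. The points lie above the line at 34 of 38 genes, and Eif4b and Eif1a stand farthest above it.

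The eIF2 genes and the genes of initiator tRNA delivery all had a peak (4 of 4, exact interval 39.8% to 100%). The strongest member of the whole list was among them. Eif2s1, which encodes the alpha subunit of eIF2 that the stress kinases phosphorylate, had signals of 480 in the optimal list, 214 in replicate 1 and 265 in replicate 2, and ranked 124 among the 29086 optimal peaks. The peak spanned chromosome 12 from 78861482 to 78861841 on mm10, with the summit at -399 bp. Its head-to-head neighbour Atp6v1d, a subunit gene of the vacuolar proton pump, starts 64 bp away, and the summit lay 335 bp from that start. The mm9 list held no summit within 1 kb of the Eif2s1 start, and the nearest was 45247 bp away with a signal of 47.8. Eif2s2, which encodes the beta subunit, stood near the other end of the list, with 57.5 in the optimal list, 25.7 in replicate 1 and 30.7 in replicate 2. The gamma subunit genes lie on X and Y and are not members. Eif2a, which encodes a separate factor able to deliver initiator tRNA, had 283 in the optimal list, 135 in replicate 1 and 145 in replicate 2. Its summit, at 80 bp downstream, lay 17 bp from the 5′ end of Serp1. Eif2d, whose product also delivers tRNA without eIF2, had 211, with 87.3 in replicate 1 and 124 in replicate 2, and the most distal peaks of any member, 12 between 2 and 50 kb away.

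All 5 subunit genes of eIF2B, the exchange factor of eIF2, had a peak (exact interval 47.8% to 100%). Each summit was within 100 bp of the 5′ end. Of all autosomal protein-coding genes 40.3% had a peak, and 54.1% of those had the summit within 100 bp. Eif2b1 (alpha) had a signal of 330 in the optimal list, 143 in replicate 1 and 190 in replicate 2, on chromosome 5 from 124578975 to 124579237. It shares a head-to-head promoter with Gtf2h3, a subunit gene of the general factor TFIIH, 17 bp away. Eif2b4 (delta) had 274 in the optimal list, 118 in replicate 1 and 157 in replicate 2, at a promoter shared with Snx17, a sorting nexin gene 123 bp away. Eif2b5, which encodes the catalytic epsilon subunit, had 184, Eif2b2 (beta) 129 and Eif2b3 (gamma) 70.2. The signals within this complex thus spanned 70.2 to 330, and the summit offsets -30 to 68 bp. The mm9 list kept the order of the 5 genes, with signals of 587 at Eif2b1, 447 at Eif2b4, 238 at Eif2b5, 177 at Eif2b2 and 118 at Eif2b3.

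Of the 14 eIF3 genes 13 had a peak (exact interval 66.1% to 99.8%). The signals of these 13 had a median of 202 and a range of 54.8 to 330. Eif3d, whose product can bind the cap of some messages, had 330 in the optimal list, 152 in replicate 1 and 179 in replicate 2, on chromosome 15 from 77970653 to 77970989. Eif3i, a WD-repeat subunit, had 322 in the optimal list, 142 in replicate 1 and 180 in replicate 2. The Eif3i summit lay 1 bp from the 5′ end of its head-to-head neighbour Tmem234. Among genes for the PCI and MPN domain core of eIF3, signals were 273 at Eif3f, 246 at Eif3k, 206 at Eif3c, 203 at Eif3l, 202 at Eif3m, 183 at Eif3a, 174 at Eif3h and 61.4 at Eif3e. These 8 core genes thus ran from the upper quartile down to below the median of promoter peaks. Outside the core, Eif3g had 123, Eif3j1 72.4 and Eif3b 54.8. Eif3b, which encodes a scaffold subunit, had 3 optimal peaks within 1 kb, of 54.8, 31.2 and 6.56, the largest number of any member. The member without a peak was Eif3j2 on chromosome 18, which shares synonyms with Eif3j1 in the RefSeq table. Its nearest optimal summit was at -42929 bp, its pooled relaxed entry within 1 kb had a signal of 7.78 at -966 bp, the replicate 2 entry 7.83 at -842 bp, and replicate 1 held none there.

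Of the 11 genes for cap binding and unwinding 6 had an mm10 peak (exact interval 23.38% to 83.25%), and 9 had one on mm9. The mm10 interval overlaps those of the eIF2, eIF2B, eIF3 and start codon selection genes. The counts therefore do not show that the shares of these groups differ. Eif4a1, which encodes the main eIF4A helicase, had signals of 355 in the optimal list, 172 in replicate 1 and 188 in replicate 2, on chromosome 11 from 69672399 to 69672780. Eif4e2, which encodes a cap-binding protein that represses translation, had 201 in the optimal list, 86.5 in replicate 1 and 113 in replicate 2, with the summit at the annotated 5′ end itself. The cap-binding factor gene Eif4e had 180, the scaffold gene Eif4g1 165, and the helicase cofactor genes Eif4b and Eif4h 94.0 and 52.2. Eif4h had the weakest promoter peak of the 39.

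The members of this group without an mm10 peak fell into different cases. At Eif4a2, a close relative of Eif4a1, the mm9 list held a peak of signal 389 at -56 bp, at the 84.1 percentile of mm9 promoter peaks. No mm10 entry of any list, relaxed lists included, lay within 1 kb of its 5′ end. The nearest pooled entry was at -3202 bp, with a signal of 8.55. Eif4g2, which encodes the eIF4G relative DAP5, likewise had an mm9 peak of 118 at -287 bp and no mm10 entry within 1 kb, the nearest pooled one being at -7547 bp with a signal of 5.92. Together with Eif2s1, which had a peak of 480 on mm10 and none on mm9, these genes gave opposite answers on the builds, and the cause was not tested. Eif4g3, which encodes a second eIF4G scaffold, had an mm9 peak of 63.5 at -66 bp. Its optimal mm10 summit of 58.4 lay 1627 bp downstream of the gene's outermost 5′ end and so outside the window, although within 1 kb of another RefSeq start. Inside the window Eif4g3 had relaxed entries of 4.25 in replicate 1 and 3.98 in replicate 2, and a pooled entry of 7.47. Eif4e3 had no optimal mm10 summit nearer than 25383 bp and an mm9 summit of 44.4 at 1051 bp, just outside the window. Eif4e1b, an oocyte relative of Eif4e, had no optimal summit nearer than 82527 bp.

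**Figure D4:**
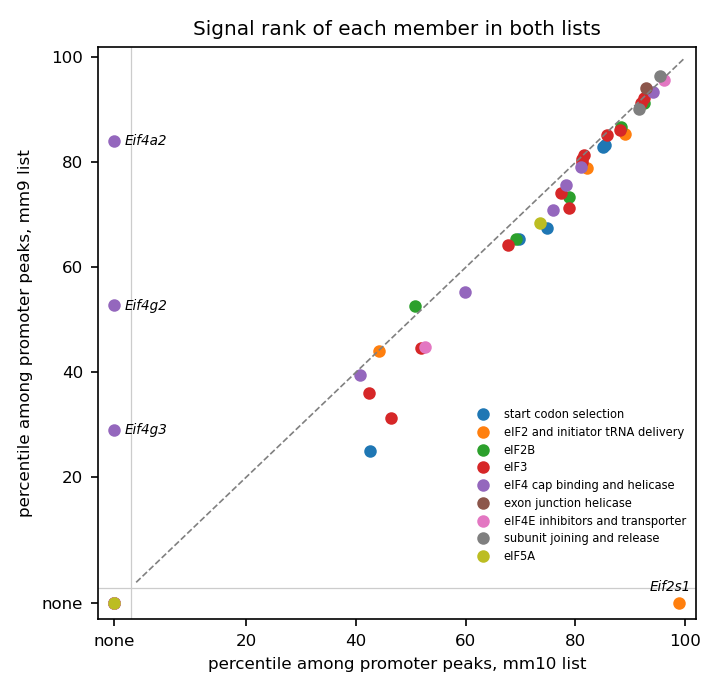
Percentile of each member's promoter peak among all promoter peaks of the mm10 list (horizontal) and of the mm9 list (vertical), coloured by factor group; genes without a peak on a build are placed at none, where 7 genes coincide at the lower left. The 38 genes with both peaks lie near the dashed line of equal percentiles, 35 of them below it, while Eif4a2, Eif4g2, Eif4g3 and Eif2s1 have a peak on 1 build only.

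The genes for start codon selection all had a peak (5 of 5, exact interval 47.8% to 100%). Eif1, which guards the fidelity of start codon choice, had 242 in the optimal list, 110 in replicate 1 and 129 in replicate 2. Eif5, whose product makes eIF2 hydrolyse its GTP, had 235 in the optimal list, 109 in replicate 1 and 125 in replicate 2. Eif1a had 158, with 47.1 in replicate 1 and 110 in replicate 2, at a promoter shared with Tmed7. Eif1ad, a gene with an eIF1A domain, had 132, and Eif1b 55.1. The Eif1ad summit lay 122 bp from the 5′ end of Banf1.

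Paralogues among the regulators and the factors of later steps had different values. Eif5b, which encodes the GTPase that joins the subunits, had 376 in the optimal list, 178 in replicate 1 and 199 in replicate 2. That summit lay at -667 bp and 49 bp from the 5′ end of its head-to-head neighbour Txndc9, and a second, weaker peak of 87.0 lay at 16 bp from the Eif5b 5′ end. Eif6, whose product keeps free large subunits apart from small ones, had 317 in the optimal list, 140 in replicate 1 and 177 in replicate 2. Of the eIF4E inhibitors, Eif4ebp2 had 392 in the optimal list, 178 in replicate 1 and 215 in replicate 2, the second strongest of the 39. Eif4ebp1 had 74.5, with 38.7 in replicate 1 and 34.6 in replicate 2. Eif4ebp3 had no optimal peak, and its relaxed entries within 1 kb had signals of 5.16 in replicate 1 and 6.48 in replicate 2, and the pooled entry had 10.2. Its nearest optimal summit, 6231 bp downstream, had a signal of 274. Eif4enif1, which encodes the eIF4E transporter, had no optimal summit nearer than 64203 bp. Eif4a3, the helicase gene of the exon junction complex, had 336 in the optimal list, 163 in replicate 1 and 172 in replicate 2, while its copy Eif4a3l1 had no optimal summit nearer than 8833 bp. Eif5a, whose product carries hypusine and acts mainly in elongation, had 151, with 59.6 in replicate 1 and 94.6 in replicate 2, and its relative Eif5a2 had no optimal summit nearer than 24390 bp. Of the 10 members without an optimal peak, 7 had no entry within 1 kb in any relaxed list, and the others were Eif3j2, Eif4g3 and Eif4ebp3. The share over all genes without an optimal peak was not computed, so this count describes the members only.

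Summits lay close to the gene starts. Of the 39 mm10 summits 26 (66.7%) were within 100 bp of the RefSeq 5′ end, against 54.1% of all genes with a promoter peak. The median signed offset was -30 bp, with 24 summits upstream, 14 downstream and that of Eif4e2 at 0. Other genes had a median of -9 bp. On mm9, measured to the nearest of all annotated starts, the median was -33 bp for members and -34 bp for other genes, and 29 of 41 member summits (70.7%) were within 100 bp, against 62.9% of other genes. The eIF3 summits ran from -276 to 30 bp, with 11 of 13 within 100 bp.

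Several large offsets were tied to the start that was used. The strongest Eif1 summit lay 547 bp downstream of the RefSeq 5′ end, with a weaker peak of 60.9 at -105 bp, and on mm9 at -21 bp from the nearest of 5 GENCODE starts. The Eif5a summit lay 387 bp downstream of the outermost RefSeq start, at -185 bp from the nearest of 6 RefSeq starts, and on mm9 at -220 bp. The Eif4e summit, 919 bp downstream of the first RefSeq start, was at -158 bp from the second, whereas GENCODE M1 has a single start, 952 bp from the mm9 summit. The Eif6 offset was 193 bp on mm10 and 41 bp on mm9. At Eif4ebp1 the offset was 873 bp on mm10 and 877 bp on mm9, where GENCODE M1 has a single start. A second, weaker Eif4ebp1 peak lay at its start, with an optimal signal of 48.4 at -21 bp and an mm9 signal of 63.6 at -11 bp. At Eif5b it was -667 and -664 bp, next to the start of Txndc9.

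**Figure D5:**
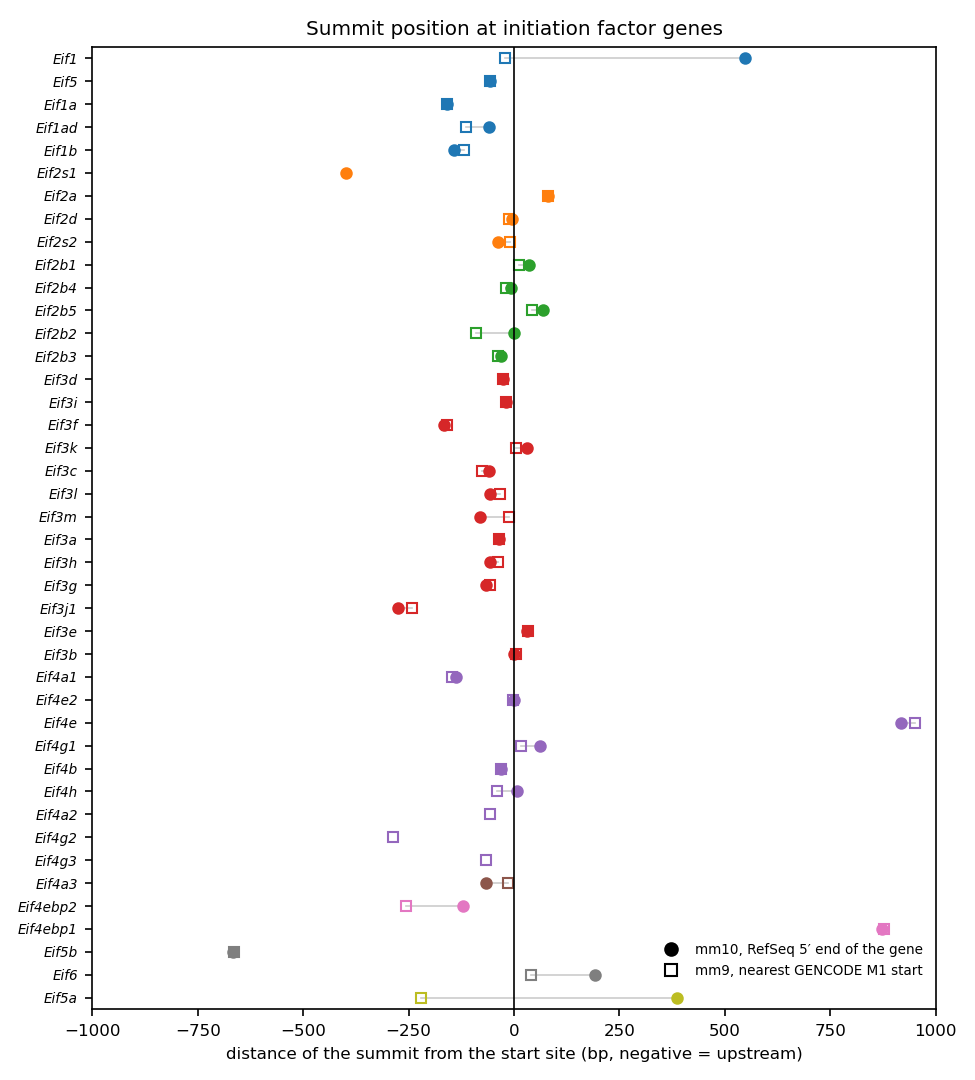
Distance in bp from the start site to the summit of the strongest promoter peak, negative upstream, for the 42 members with a peak on either build: filled circles are mm10 summits and the RefSeq 5′ end, open squares mm9 summits and the nearest GENCODE M1 start. Eif1 and Eif5a move from 547 and 387 bp to -21 and -220 bp, while the strongest peaks of Eif4e, Eif4ebp1 and Eif5b stay far from the start on both builds, at 919, 873 and -667 bp on mm10; the weaker mm10 peaks of Eif4ebp1 at -21 bp and Eif5b at 16 bp are not drawn.

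Some of the signal was shared with other genes. A protein-coding neighbour started head to head within 1 kb of 7 members (14.3%), against 7.14% of all genes: Eif1a, Eif2s1, Eif2b1, Eif2b4, Eif3i, Eif3k and Eif5b. All 7 had a peak, with a median signal of 322, and of other head-to-head genes 85.5% had one, with a median of 148. Of the 42 members without such a neighbour 32 had a peak (76.2%), with a median of 182, against 36.8% and 89.6 for other such genes. Counting every neighbour, 9 of the 39 member peaks (23.1%) also lay within 1 kb of another gene's 5′ end, and 23.7% of the peaks of other genes did.

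Away from the promoters the members were near the background. A summit 2 to 50 kb away and over 2 kb from every 5′ end was found for 30 of 49 members (61.2%), against 52.6% of all genes, with a median of 1 such peak in members and in other genes. At Eif5 the strongest of them had a signal of 164, and at Eif3i 123.

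Genes that act beside the initiation factors were also described, from a list of 39, of which 36 could be counted. A promoter peak was found at 29 of them (80.6%), against 40.3% of all genes and 79.6% of the members. The median signal was 104, near the 97.7 of other genes with a peak and below the 201.5 of the members. The strongest were at Ppp1r15b (434), a phosphatase subunit gene that reverses eIF2 phosphorylation, at the eIF2 kinase gene Eif2ak3 (383), at the release factor gene Gspt1 (348) and at the eIF2 kinase gene Eif2ak1 (341). The other kinase genes were weaker, with 82.5 at Eif2ak2 and 24.3 at Eif2ak4. Of the listed elongation factor genes, Eef1b2 had 135, Eef1g 94.6, Eef1d 93.1, Eef2 68.9 and Eef1a1 59.9. Eef1e1, which by its name belongs with them and encodes a protein of the tRNA synthetase complex, had 231. No promoter peak was found at Bzw2, Larp1, Mcts2, Mknk1, Pabpc1, Paip1 or Pdcd4. The poly(A)-binding protein gene Pabpc4 had a peak of 9.52, at the 2.03 percentile of promoter peaks.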

How the data were processed

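Peak lists of ELF1 ChIP-seq in 2 biological replicates of CH12.LX were used. Per the deposited README text, the authors derived the relaxed lists from mm10 alignments and a control, the optimal and conservative lists from these by the irreproducible discovery rate, and the mm9 list from both replicates' mm9 alignments. Aligner and caller: not given in the sources used here. The unit used was the deposited peak signal (column 7), ranked within a list.

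On mm10 the outermost 5′ end of each gene was taken from RefSeq (GRCm38.p6). Strand came from a RefSeq promoter table for 16456 genes and from GENCODE M1 for 3536 by symbol and 368 by synonym, and 301 genes without one were left out. Where both gave a strand, it was the same in 14032 of 14069 genes. On mm9 all GENCODE M1 starts and the NCBIM37 sequence were used. Positions count from 1, with no conversion between builds. A gene had a promoter peak when a summit lay within 1 kb, and its strongest one was described. Replicate entries were matched within 100 bp. Planted peaks in simulated data were all found at their offsets. Python 3.11.15, pandas 2.3.3, NumPy 2.4.6 and SciPy 1.17.1 were used.

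The members, lists and comparisons were chosen with earlier results of these data known. No p-value was computed, as the single group and the chosen list allow no test. By the rule for named genes, full values were given for the strongest members of each factor group, for those whose builds differed and for those without a peak but with a relaxed entry within 1 kb. Intervals are exact 95% Clopper-Pearson intervals.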

Additional observations from a re-analysis of the deposited data

How the results depend on the processing

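The promoter share of the members changed by few genes under the settings tried. It stayed within its 95% interval, but with 49 genes that interval is wide and was easily met. On mm10 it lay between 77.6% (38 of 49, within 500 bp, without Eif4e) and 83.0% (39 of 47, without the copies Eif4a3l1 and Eif3j2, a setting chosen after seeing the data), and on mm9 between 77.6% (stronger 50% of peaks, without Eif1b, Eif3e and Eif4g3) and 85.7% (within 2 kb, with Eif4e3). Either replicate alone, the conservative list and the stronger 50% of optimal peaks each gave 39 of 49. The stronger 50% could not lower the count, since the weakest member peak ranked 10962 of 29086 optimal peaks. The conservative list was derived from the same relaxed entries as the optimal list. Using every RefSeq start, also chosen after seeing the data, or 2 kb, added Eif4g3 (40 of 49). The median signal was 183.5 within 500 bp, against 201.5, since weaker peaks replaced those used at Eif1 and Eif5b. These fell from 242 to 60.9 and from 376 to 87.0, from above the main median to below it. Eif4e left and a weaker peak was used at Eif4ebp1, but both genes were already below the main median. With 1 replicate left out, the median signal ranged from 87.3 to 112, on the replicates' own scales, and the median offset from -33 to -30 bp. No paired analysis was possible because there is a single group. Depth is not given in the lists, so a gene without a peak is one where none was detected in these lists.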
